A study of Homo sapiens with 3 samples.

Results

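The proteasome genes described here were found by symbol, as genes whose name starts with PSM, a letter from A to G and a number, measured on 3 two-colour arrays of a human bronchial epithelial cell line. The rule gave 41 of the 9394 genes that had 1 symbol and a value on all 3 arrays. Of these, 37 code for subunits, activators, an inhibitor or assembly chaperones of the proteasome. The other 4 share only the letters and were kept apart. The 37 genes were read by 50 probes with a value on every array.

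Every array compared BEAS-2B cells given MTX, the abbreviation used by the labels, with BEAS-2B cells given DMSO, the solvent control. BEAS-2B is an immortalised line of normal human bronchial epithelium, so all values come from 1 line. The dose of MTX was 0.144 µM, described as giving 20% inhibition, and exposure lasted 48 h after 24 h of incubation. The RNA of MTX cells carried Cy5 and the RNA of DMSO cells carried Cy3 on all 3 arrays, with no exchange of dyes. Dye and treatment cannot be told apart for any single gene. Nothing in the labels says whether the arrays used separate cultures or more than 1 preparation of DMSO RNA. The p-values therefore reflect only how far these 3 arrays differ, a spread that may be technical. Each value is a normalised log ratio in the units of the deposited table, read as MTX over DMSO from the labelled dyes. That direction is likely, but it could not be set against scanner signals. The base of the logarithm is not given in the sources used here, so folds are stated for base 10 and for base 2. Ratios hold no expression level, so neither the abundance of a transcript nor the presence of the line's epithelial markers could be checked.

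The proteasome is the protease that degrades proteins marked with ubiquitin. Its barrel-shaped 20S core has outer rings of alpha subunits, which form the gate, and inner rings of beta subunits, some of which cut peptides. The 19S cap recognises ubiquitin, removes it, and unfolds the substrate with a ring of ATPases. Other activators can replace the cap, dedicated chaperones build each part, and inducible beta subunits replace the constitutive catalytic ones in the immunoproteasome, which is known for producing peptides for antigen presentation.

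With MTX, transcripts of the 20S core were lower or did not pass the test, with PSMA1 passing as higher under some other settings, and the remaining parts of the proteasome went both ways. Of the 37 genes 14 fell, 4 rose and 19 did not pass (limma, adjusted p under 0.05 over all genes). Over all 9394 genes tested, 29.0% passed, with 12.4% lower and 16.6% higher, against 37.8% lower and 10.8% higher among the proteasome genes. The median mean log ratio of the 37 genes was -0.0315, and that of all genes was 0.00742. The median lay at -0.0417, -0.0433 and -0.0302 on arrays 1, 2 and 3. It is a small shift, 1.08-fold lower in base 10 and 1.02-fold lower in base 2, and it turned to 0.0148 when the first probe of each gene stood for the gene. By direction, 21 means were below 0 and 16 above. Of the 37 genes 33 kept 1 sign on all 3 arrays, which 63.6% of all genes did. When array 1 or array 2 was left out, 0 genes passed, here or among all 9394, while 18 and 16 of the 37 had an unadjusted p under 0.05. Of all genes 2938 and 2387 did so. All 18 called genes had 1 sign on all 3 arrays, so their sign could not change when an array was left out.

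**Figure D1:**
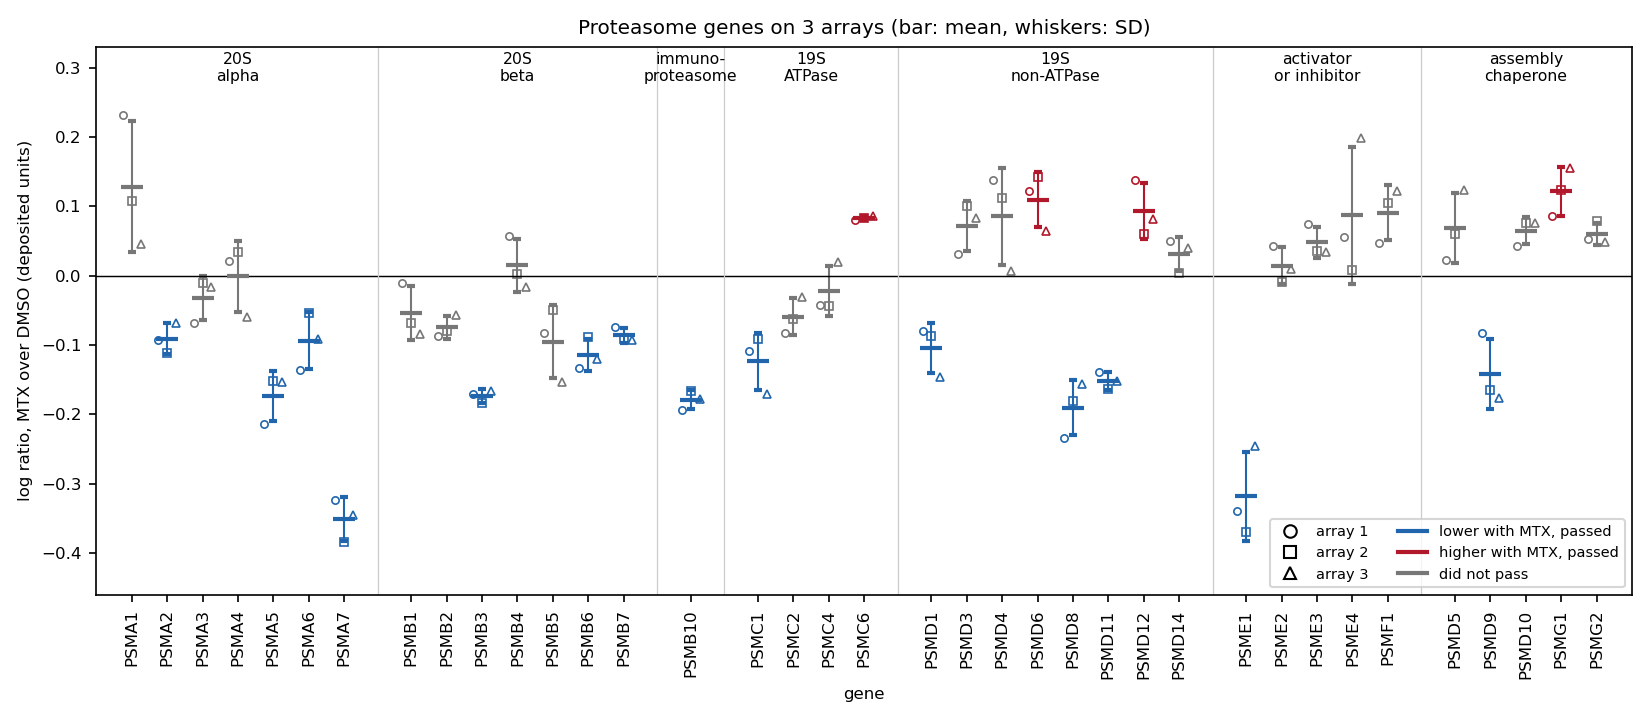
Log ratio of MTX over DMSO, in deposited units, for 37 proteasome genes grouped by role. Open symbols are arrays 1, 2 and 3, the thick bar is their mean and the whiskers their SD. PSMA7 and PSME1 lie below -0.24 on every array, while PSMC6 and PSMG1 lie above 0 on every array.

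The called genes with an entry in the RefSeq promoter table (GRCh38.p14) were ranked by their mean. Promoter sequences are shown for the 2 lowest and the 2 highest of them. Each covers 250 bases before to 50 bases after the annotated start, printed 5′ to 3′ along the gene. Capitals mark matches to 3 short motifs searched on both strands: the core of the antioxidant response element, TGACNNNGC, through which the factor NFE2L1 is known to act on proteasome genes, the CCAAT box, and the ETS core CCGGAAG.
PSME1 (chr14:24135944-24136243, plus strand): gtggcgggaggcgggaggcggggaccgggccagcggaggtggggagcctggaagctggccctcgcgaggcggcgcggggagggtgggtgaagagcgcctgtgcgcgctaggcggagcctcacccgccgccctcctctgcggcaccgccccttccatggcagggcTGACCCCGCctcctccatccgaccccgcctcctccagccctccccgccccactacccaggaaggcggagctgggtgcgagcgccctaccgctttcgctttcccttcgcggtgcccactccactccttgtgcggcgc
PSMD8 (chr19:38374321-38374620, plus strand): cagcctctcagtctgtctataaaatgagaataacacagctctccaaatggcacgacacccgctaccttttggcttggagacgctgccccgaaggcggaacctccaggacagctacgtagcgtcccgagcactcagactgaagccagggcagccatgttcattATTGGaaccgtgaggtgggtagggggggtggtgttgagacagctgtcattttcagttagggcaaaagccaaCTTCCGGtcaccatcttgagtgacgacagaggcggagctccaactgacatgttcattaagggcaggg
PSMG1 (chr21:39183402-39183701, minus strand): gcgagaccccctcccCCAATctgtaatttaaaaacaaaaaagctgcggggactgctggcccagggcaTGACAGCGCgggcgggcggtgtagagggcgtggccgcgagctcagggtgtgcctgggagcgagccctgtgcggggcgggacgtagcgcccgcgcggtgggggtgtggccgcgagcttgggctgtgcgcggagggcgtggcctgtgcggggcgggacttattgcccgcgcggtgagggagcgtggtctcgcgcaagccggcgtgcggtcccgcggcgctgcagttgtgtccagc
PSMD6 (chr3:64023445-64023744, minus strand): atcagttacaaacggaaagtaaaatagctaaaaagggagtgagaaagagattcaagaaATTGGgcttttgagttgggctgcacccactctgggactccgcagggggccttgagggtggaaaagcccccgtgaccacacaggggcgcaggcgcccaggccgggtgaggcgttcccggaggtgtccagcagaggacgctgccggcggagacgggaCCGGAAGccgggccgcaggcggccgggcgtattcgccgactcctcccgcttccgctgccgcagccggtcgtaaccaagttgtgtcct

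PSME1 held 1 antioxidant response core, starting 86 bases before the start site. PSMD8 held a CCAAT box and an ETS core, both on the opposite strand. PSMG1, which was higher, held an antioxidant response core and a CCAAT box, and PSMD6 held a CCAAT box and an ETS core. The promoters of a lower and a higher gene thus each carried the first motif. Entries were found for 32 of the 37 genes, the missing ones being PSMA7, PSMB1, PSMB6, PSMB7 and PSMD4. The antioxidant response core occurred in 12 of these 32 promoters (37.5%), against 13.6% of 27305 promoters in the table and 15.2% of the 7680 promoters of genes tested. By call it occurred in 4 of 11 lower genes (PSMB3, PSMD1, PSME1 and PSMD9), in 2 of 4 higher genes (PSMD12 and PSMG1), and in 6 of 17 that did not pass. The ETS core was found in 9 of 32, against 19.2% of the promoters of genes tested. Higher genes carried it in 3 of 4 cases (PSMC6, PSMD6 and PSMD12), lower genes in 3 of 11, and those that did not pass in 3 of 17. The CCAAT box was found in 14 of 32 members and in 37.5% of promoters of genes tested. None of the motifs overlapped another in the 4 sequences, and a match is a stretch of letters, not a measured binding site.

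The alpha ring of the 20S core held the lowest value of all 37 genes. Of 7 alpha subunits 4 fell (57.1%), 0 rose and 3 did not pass, beside 12.4% lower and 16.6% higher of all genes. The median of the 7 was -0.0905. PSMA7, an alpha-ring subunit, gave -0.323, -0.385 and -0.345 on arrays 1, 2 and 3. All 3 values lay below those of any other alpha subunit on the same array. Its mean was -0.351 ± 0.0313 (SD, n = 3), lower by 2.24-fold (base 10) or 1.28-fold (base 2), with a limma adjusted p of 0.00866. After the running median of neighbouring spots was removed, the mean was -0.228, and it still passed. PSMA5 gave -0.214, -0.152 and -0.153, and its mean of -0.173 ± 0.0355 was lower by 1.49-fold (base 10) or 1.13-fold (base 2). The difference of PSMA7 minus PSMA5 was -0.178 ± 0.0631 over the arrays, with the same sign on each, and was not tested.

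PSMA2 was at -0.0921, -0.112 and -0.0675, lower on each array by a similar amount. Its mean of -0.0905 had an adjusted p of 0.0373, and removal of the local median of the array surface left -0.0659, which did not pass. PSMA6 had 2 probes for 1 accession, with means of -0.106 and -0.0818, and averaged -0.136, -0.0539 and -0.0917 on the 3 arrays. Its adjusted p of 0.0495 was close to the threshold. PSMA3 averaged -0.0315 ± 0.0318 (adjusted p = 0.335). PSMA1 was the only alpha subunit with positive values throughout, at 0.232, 0.108 and 0.0458, and these spread widely around a mean of 0.129 (adjusted p = 0.0728). PSMA1 did pass as higher with array weights (0.123, adjusted p = 0.00983), after removal of the running median (0.137, adjusted p = 0.0350) or the local median (0.123, adjusted p = 0.0497), and without array 3 (0.170, adjusted p = 0.0179). Without array 1 its mean was 0.0768.

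PSMA4 could not be read as 1 value. Its probe annotated with an NM accession gave -0.207, -0.159 and -0.159 on arrays 1, 2 and 3 (adjusted p = 0.0115 in the fit of single probes). The probe annotated with an EST (expressed sequence tag) gave 0.249, 0.229 and 0.0411 (adjusted p = 0.0511). The probes had opposite signs on every array, and the gene mean of -0.000985 is the average of opposite readings. With NM probes alone PSMA4 was lower at -0.175 (adjusted p = 0.0112, with 0.0112 to 0.982 over the 10 settings tried on 3 arrays).

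In the beta ring 3 of 7 constitutive subunits fell (42.9%), 0 rose and 4 did not pass, beside 12.4% lower and 16.6% higher of all genes. The median of the 7 was -0.0858. PSMB3, a structural subunit without a known catalytic site, gave -0.170, -0.184 and -0.166, the tightest of the beta subunits. Its mean was -0.173 ± 0.00969 (SD, n = 3), lower by 1.49-fold (base 10) or 1.13-fold (base 2) (adjusted p = 0.0109). The catalytic subunits are PSMB5, which cuts after hydrophobic residues, PSMB6, which cuts after acidic ones, and PSMB7, which cuts after basic ones. PSMB6 gave -0.134, -0.0888 and -0.120, with a mean of -0.114 ± 0.0230 (adjusted p = 0.0232). PSMB7 gave -0.0736, -0.0906 and -0.0932, with a mean of -0.0858 ± 0.0106 (adjusted p = 0.0364). On each array the gene values of both were below 0, those of PSMB7 being averages of 2 probes. PSMB5 gave -0.0827, -0.0501 and -0.153, and its mean of -0.0952 ± 0.0526 did not pass (adjusted p = 0.0613, 95% interval -0.168 to -0.0229).

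The PSMB7 mean again joined unlike probes. The NM probe averaged -0.196 ± 0.0493 (adjusted p = 0.0125), and the EST probe 0.0248 ± 0.0608 (adjusted p = 0.571). PSMB1 had 2 probes for 1 NM accession, at 0.0199 ± 0.0154 and -0.128 ± 0.0627, of which the second passed (adjusted p = 0.0396). The 2 probes of PSMB2 lay at -0.117 and -0.0325, both below 0, and only the first passed (adjusted p = 0.0225). As gene means, PSMB1 at -0.0539 and PSMB2 at -0.0745 did not pass (adjusted p = 0.152 and 0.0529). PSMB4, another structural subunit, was at 0.0150 ± 0.0383 (adjusted p = 0.658).

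**Figure D2:**
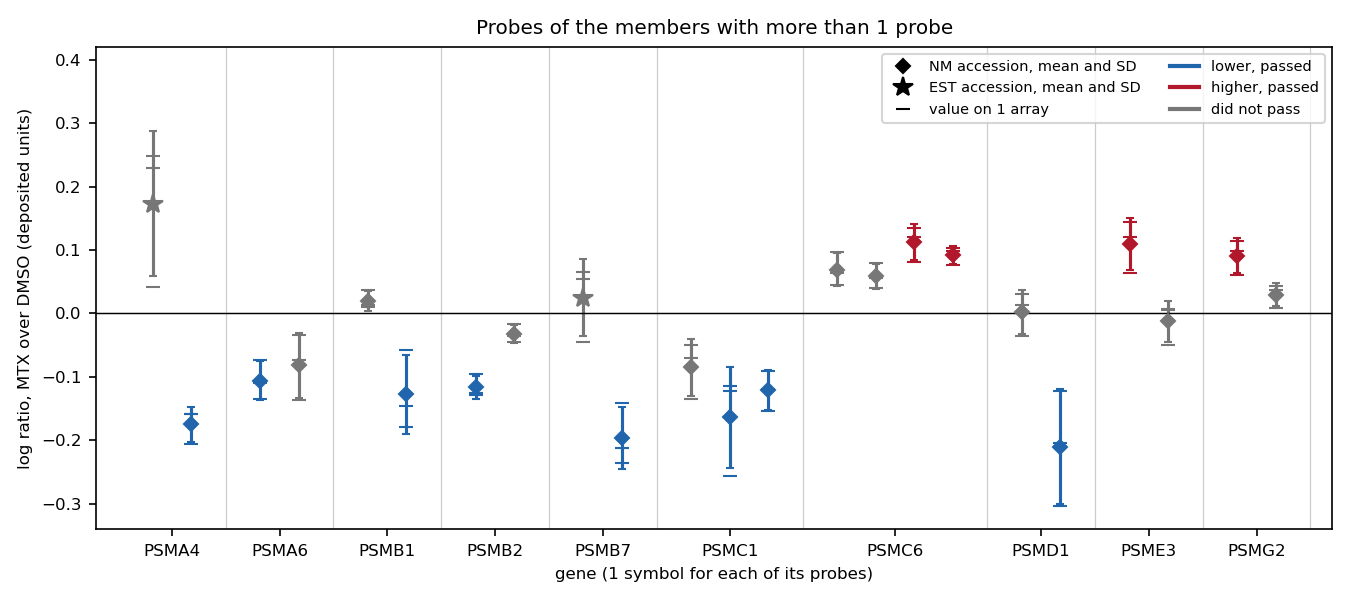
Log ratio of MTX over DMSO, in deposited units, for every probe of the 10 members with more than 1 complete probe. Diamonds (NM accession) and stars (EST accession) are means with SD over 3 arrays, and dashes are single arrays. The probes of PSMA4, PSMB1, PSMB7, PSMD1 and PSME3 have means on both sides of 0.

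Of the inducible subunits of the immunoproteasome, PSMB10 was measured on all arrays. It replaces PSMB7 in the core. It gave -0.193, -0.166 and -0.177, a mean of -0.179 ± 0.0137 (SD, n = 3), lower by 1.51-fold (base 10) or 1.13-fold (base 2) (adjusted p = 0.0107). The 3 arrays spanned a narrow range, and PSMB10 minus PSMB7 was -0.0929 ± 0.0234. PSMB8, which replaces PSMB5, had 0.104 and -0.0153 on arrays 2 and 3. PSMB9, which replaces PSMB6, had -0.0268 and 0.0171 on the same arrays. Each of these changed sign between arrays, and neither entered the test over 3 arrays. Taking the alpha, beta and PSMB10 genes as the core, 8 of 15 fell (53.3%), 0 rose and 7 did not pass (PSMA1 among these 7). Of all genes 12.4% were lower and 16.6% higher. The array medians of the core were -0.0871, -0.0802 and -0.0917.

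The ATPases of the 19S base, which open the gate and unfold substrates, were split. Of 4 measured, PSMC1 fell (25%), PSMC6 rose (25%) and 2 did not pass, beside 12.4% lower and 16.6% higher of all genes. PSMC1 gave -0.108, -0.0918 and -0.170 over 3 probes whose means were -0.0850, -0.164 and -0.121, all below 0. Its mean of -0.123 ± 0.0413 was lower by 1.33-fold (base 10) or 1.09-fold (base 2) (adjusted p = 0.0270). PSMC6 gave 0.0802, 0.0828 and 0.0856, and its 4 probes averaged 0.0688, 0.0582, 0.112 and 0.0923, so that every probe and array was above 0. Its mean of 0.0829 ± 0.00275 was higher by 1.21-fold (base 10) or 1.06-fold (base 2) (adjusted p = 0.0377). In the fit of single probes those at 0.112 and 0.0923 passed, and those at 0.0688 and 0.0582 did not. Both PSMC1 and PSMC6 lost their call with the first probe of each gene (adjusted p = 0.0756 and 0.0857). The same held with probes on at least 2 arrays (adjusted p = 0.0516 and 0.0688). PSMC6 minus PSMC1 was 0.206 ± 0.0434, positive on each array. PSMC2 and PSMC4 averaged -0.0587 and -0.0218 (adjusted p = 0.104 and 0.514). PSMC3 had values on arrays 1 and 2, at -0.0399 and -0.0357.

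Among 8 non-ATPase subunits of the 19S cap 3 fell (37.5%), 2 rose (25%) and 3 did not pass, and the median was 0.0516. Of all genes 12.4% were lower and 16.6% higher. All 8 kept 1 sign on the 3 arrays, 3 below 0 and 5 above, against 63.6% of all genes that kept 1 sign. PSMD8, a lid subunit, gave -0.234, -0.181 and -0.156, with a mean of -0.190 ± 0.0396 (SD, n = 3), lower by 1.55-fold (base 10) or 1.14-fold (base 2) (adjusted p = 0.0123). PSMD11, the lid subunit that clamps the cap to the core, gave -0.138, -0.164 and -0.152, with a mean of -0.151 ± 0.0128 (adjusted p = 0.0129). Its EST probe had a value on array 2 alone, 0.170, of the opposite sign. PSMD1, a scaffold of the base, averaged -0.104 ± 0.0362 (adjusted p = 0.0355) from unlike probes of 1 accession. The first probe averaged 0.00299. The second gave -0.123, -0.205 and -0.304, a mean of -0.210 ± 0.0907 (adjusted p = 0.0215).

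The rising subunits of the lid were PSMD6 and PSMD12. PSMD6 gave 0.123, 0.142 and 0.0651, a mean of 0.110 ± 0.0400 (adjusted p = 0.0338), higher by 1.29-fold (base 10) or 1.08-fold (base 2). After removal of the local median it was 0.0721 and did not pass (adjusted p = 0.0537, with 0.00192 to 0.0769 over the 10 settings on 3 arrays). PSMD12 gave 0.139, 0.0602 and 0.0817, a mean of 0.0936 ± 0.0407, at an adjusted p of 0.0494. The call of PSMD12 was kept in only 4 of the same 10 settings (adjusted p from 0.0184 to 0.0902). Centring of the arrays was among those that lost it (0.0532). PSMD6 minus PSMD8 was 0.300 ± 0.0704 and PSMD12 minus PSMD11 was 0.245 ± 0.0282, both positive on every array. The ubiquitin receptor PSMD4 averaged 0.0858 ± 0.0697 and the lid subunit PSMD3 0.0717 ± 0.0365, neither of which passed (adjusted p = 0.108 and 0.0808). The value of PSMD4 moved with the setting, at -0.000346 after the local median and 0.0465 after the running median, and it passed with array weights (0.109, adjusted p = 0.00520) and without array 3 (0.125, adjusted p = 0.0118). PSMD14, the deubiquitinase of the lid, was at 0.0315 ± 0.0245 (adjusted p = 0.310, 95% interval -0.0247 to 0.0876). PSMD2, a base scaffold, had 0.0413 and -0.0139 on arrays 2 and 3.

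**Figure D3:**
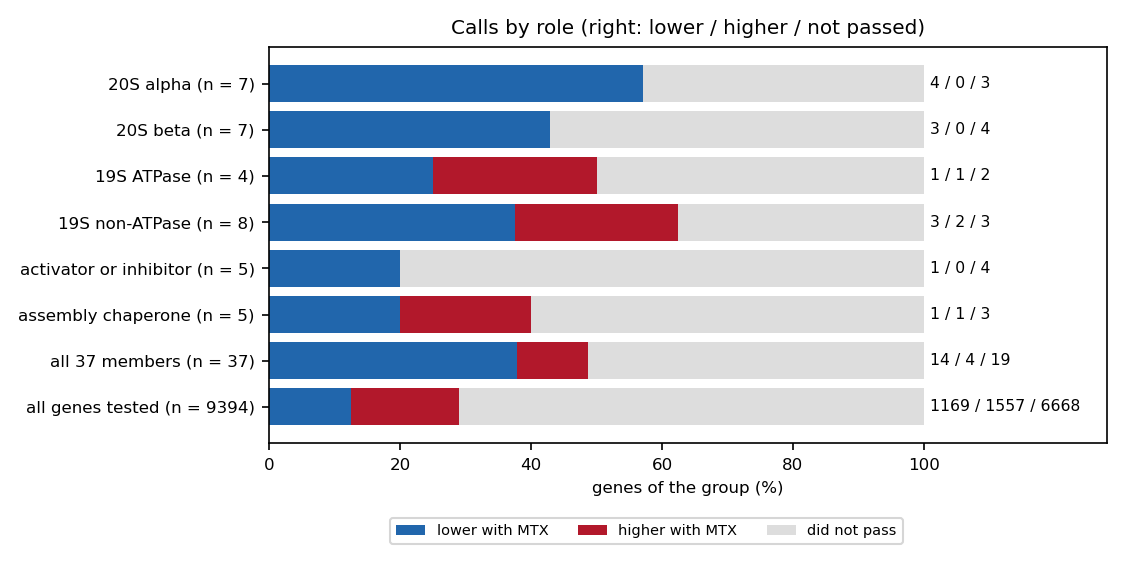
Percent of genes in each role that passed as lower (blue) or higher (red) with MTX or did not pass (grey), with the counts at the right. The alpha and beta rows hold 7 lower and 0 higher genes between them, whereas all genes tested have 1169 lower and 1557 higher. PSMB10 alone forms the immunoproteasome group and is shown only within the 37.

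PSME1 was the activator that fell. It encodes the alpha subunit of the PA28 ring, an interferon-inducible activator it forms with PSME2. PSME1 gave -0.339, -0.370 and -0.246, a mean of -0.318 ± 0.0643 (SD, n = 3), lower by 2.08-fold (base 10) or 1.25-fold (base 2) (adjusted p = 0.00979). A further probe of the same accession gave -0.0539 and -0.124 on arrays 2 and 3, lower as well but by less, and with it the mean was -0.245. PSME2, its ring partner, gave 0.0429, -0.00869 and 0.0102 and did not pass (adjusted p = 0.628). PSME1 minus PSME2 was -0.381, -0.361 and -0.256. PSME1 thus lay below PSME2 on each array, and its further probe did so by less on arrays 2 and 3.

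PSME3, which forms a nuclear activator ring on its own, averaged 0.0483 ± 0.0226 (adjusted p = 0.145) from probes at 0.109 (adjusted p = 0.0368) and -0.0127. PSME4, a large single-chain activator, spread from 0.00812 on array 2 to 0.198 on array 3 (adjusted p = 0.174). PSMF1, a binding protein of the core first described as an inhibitor, gave 0.0466, 0.105 and 0.122, with a mean of 0.0911 just outside the threshold (adjusted p = 0.0508). Its other probe had -0.0848 on array 3. Of the members nearest the threshold, PSMA6 and PSMD12 lay just inside, and PSMF1 and PSMB2 just outside.

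Of 5 assembly genes measured, 1 rose (20%), 1 fell (20%) and 3 did not pass, beside 16.6% higher and 12.4% lower of all genes. The gene values of 4 were above 0 on all 3 arrays, as were those of 3218 of all 9394 genes. PSMG1, which pairs with PSMG2 to guide the building of the alpha ring, gave 0.0856, 0.124 and 0.155, a mean of 0.122 ± 0.0349 (SD, n = 3), higher by 1.32-fold (base 10) or 1.09-fold (base 2) (adjusted p = 0.0249). PSMG2 averaged 0.0603 ± 0.0159 (adjusted p = 0.0840), from probes at 0.0908 (adjusted p = 0.0450) and 0.0297. Both genes of the pair were above 0 on every array. PSMD9, PSMD5 and PSMD10 are chaperones of the 19S base. PSMD9 gave -0.0831, -0.165 and -0.176, a mean of -0.141 ± 0.0506 (adjusted p = 0.0249), although another probe read 0.0286 on array 2. The call of PSMD9 was lost after the running median was removed (adjusted p = 0.0592, with 0.00207 to 0.0592 over the 10 settings on 3 arrays). PSMD5 and PSMD10 averaged 0.0690 and 0.0651 (adjusted p = 0.117 and 0.0743). For PSMD5 a further probe gave -0.116 and -0.0515 on arrays 2 and 3.

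Of the 10 members with more than 1 complete probe, 5 had probes of opposite sign, against 45.4% of the 2458 such genes on the array. That share is near the one for all such genes. In the fit of single probes 17 members had a probe that was lower and none higher, 5 had a probe higher and none lower, and 0 had probes called both ways. PSMB1, PSMB2 and PSMA4 entered the lower set in that fit, PSME3 and PSMG2 entered the higher set, and PSMD12 left it. Of the 50 member probes 18 were lower and 6 higher, and over all 17569 probes 2675 were lower and 2675 higher.

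**Figure D4:**
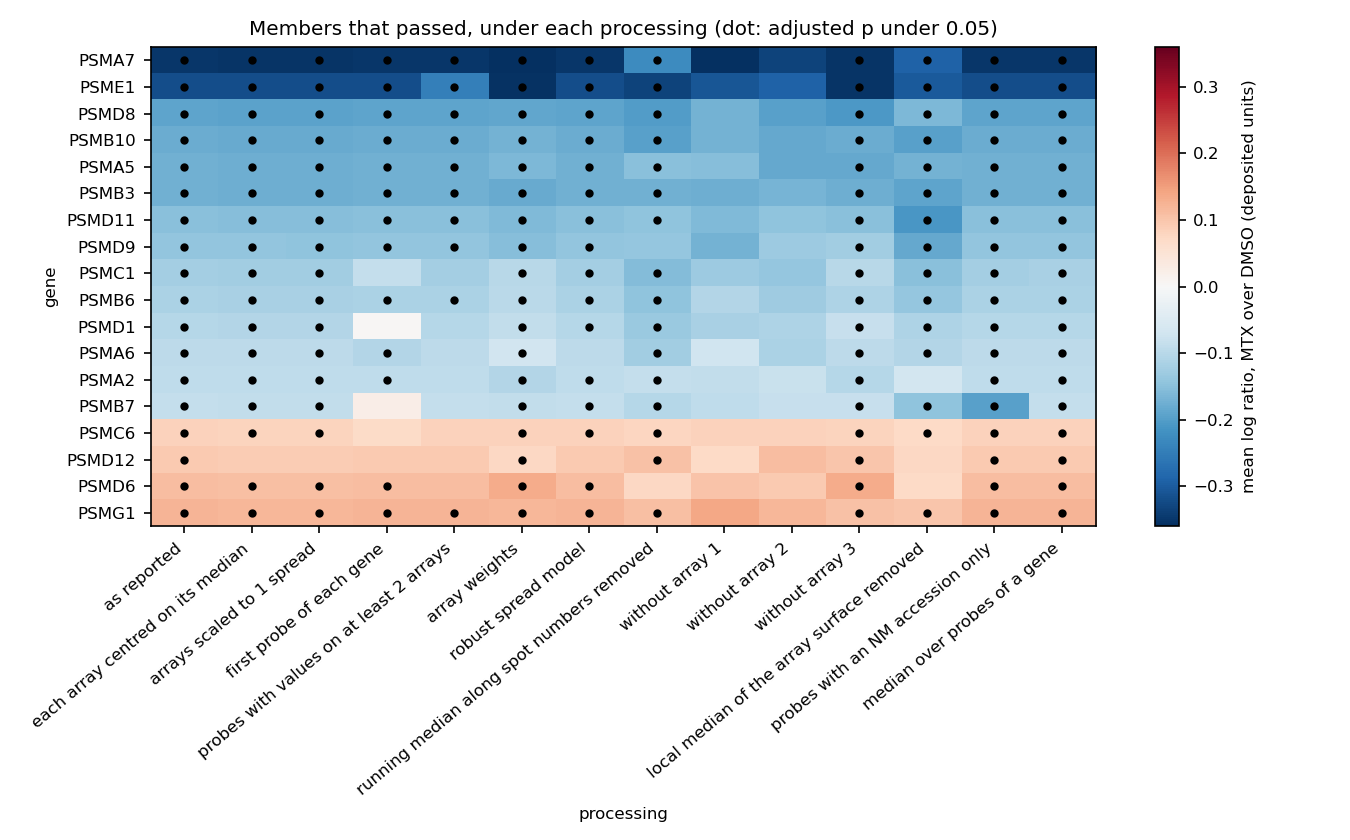
Mean log ratio of MTX over DMSO, in deposited units (colour), of the 18 members that passed, under each processing, with a dot where the adjusted p was under 0.05. The dots are absent throughout without array 1 and without array 2, while the colours of PSMB7 and PSMD1 cross 0 with the first probe of each gene.

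The genes that share only the letters were not proteasome parts. PSME3IP1, which codes for an interactor of PSME3, was higher at 0.0915, 0.0860 and 0.183 (mean 0.120 ± 0.0543, adjusted p = 0.0376), although its other probe gave -0.0596 on array 1. The antisense RNA PSMA3-AS1 averaged -0.0693 ± 0.0530, the recombination factor PSMC3IP 0.0443 ± 0.0716 and the divergent transcript PSMD7-DT 0.0299 ± 0.0765, and none of these passed.

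Proteasome parts named otherwise included ADRM1, a ubiquitin receptor of the cap, at -0.0699, -0.136 and -0.0813 (mean -0.0957, adjusted p = 0.0414). The call of ADRM1 was lost with probes on at least 2 arrays (-0.0539, adjusted p = 0.199) and after the local median (-0.0700, adjusted p = 0.0971). ECPAS, a protein that binds core and cap together, gave -0.155, -0.130 and -0.149 (mean -0.145 ± 0.0128, adjusted p = 0.0138). Both fell on every array, and the other 9 of 11 genes measured on that list did not pass. The shares were 18.2% lower and 0% higher, beside 12.4% and 16.6% of all genes. The median over all 11 was 0.0291. POMP, the chaperone of the beta ring, averaged 0.0332, and the deubiquitinases USP14 and UCHL5 averaged -0.0409 and 0.0595 (adjusted p = 0.258, 0.200 and 0.0961).

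Among all genes 12.4% were lower and 16.6% higher. Upstream, 4 of 16 genes (25%) for ubiquitin, its activating enzymes and delivery factors fell and 0 rose, with a median of -0.0538. They were UBA6, an activating enzyme (-0.144), NSFL1C, a cofactor of the segregase VCP (-0.181), UBE4B, a chain-elongating ligase (-0.0967), and BAG6, a chaperone for misfolded proteins (-0.143). VCP itself averaged -0.0708 and the polyubiquitin gene UBB -0.0651, and neither passed (adjusted p = 0.0644 and 0.101). Of 20 conjugating enzymes 2 fell and 3 rose, shares of 10% and 15% beside 12.4% and 16.6% of all genes. UBE2F and UBE2R2 fell to -0.110 and -0.142, and UBE2A, UBE2N and UBE2T rose by 0.0916, 0.0915 and 0.106.

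Of 11 genes known to regulate proteasome genes 4 fell, 2 rose and 5 did not pass. The shares were 36.4% lower and 18.2% higher, beside 12.4% and 16.6% of all genes. NFE2L1, the factor that raises proteasome genes when the proteasome is inhibited, gave -0.0768, -0.0839 and -0.0662 over 3 probes (adjusted p = 0.0479). Its probe with an NM accession averaged 0.0180 (adjusted p = 0.586, the highest of the settings tried, the lowest being 0.00509), so its direction depends on the probe. NFE2L3, a relative of the same family, fell to -0.244 ± 0.0642 (adjusted p = 0.0122), and MAFG, a small Maf partner of these factors, to -0.122 ± 0.0210. FOXO3 fell to -0.175 ± 0.107. NGLY1, the deglycosylase that processes NFE2L1, rose by 0.109 ± 0.0236 (adjusted p = 0.0257), and FBXW7, an F-box adaptor, by 0.216 ± 0.114. NFE2L2 averaged 0.0634 and did not pass (adjusted p = 0.0952).

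Of 19 partners of the immunoproteasome in antigen processing 4 fell and 0 rose, with a median of -0.0685. The shares were 21.1% lower and 0% higher, beside 12.4% and 16.6% of all genes. B2M, the light chain of class I molecules, gave -0.268, -0.279 and -0.299, a mean of -0.282 ± 0.0158 (adjusted p = 0.00866). The chaperone CALR (-0.136) and the peptidases ERAP2 (-0.161) and BLMH (-0.111) also fell. TAP1, the peptide transporter, was at 0.0615 and did not pass (adjusted p = 0.0890).

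Other large complexes are set beside the proteasome as a description. Among all genes 12.4% were lower and 16.6% higher. Cytosolic ribosomal proteins had 46 of 70 genes lower (65.7%) and 0 higher, with a median of -0.141. RPL26, RPL10L, RPS16 and RPS10 had the smallest p-values there, at -0.314, -0.336, -0.312 and -0.266. The cytosolic chaperonin and its prefoldin partner had 4 of 13 lower (30.8%) and 2 higher (15.4%), with a median of -0.0707. CCT7, CCT3, PFDN1 and PFDN4 fell, at -0.222, -0.174, -0.102 and -0.125, while TCP1 and VBP1 rose by 0.102 and 0.113. The COP9 signalosome and eIF3, which resemble the 19S lid in subunit make-up, had 5 of 19 lower (26.3%) and 0 higher. Their median was -0.0469. In that list COPS2, COPS6, EIF3E, EIF3G and EIF3K fell, COPS6 to -0.184 and EIF3E to -0.194. Whether the lower readings of these complexes and of the 20S core follow transcript abundance was not tested.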

How the data were processed

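Total RNA of MTX-treated (Cy5) and DMSO-treated (Cy3) BEAS-2B cells was compared on 3 two-colour arrays. Per the series' design text, slides were scanned with GenePix, ratios were formed after subtraction of each spot's local background median, and a LOWESS curve over intensity was used to normalise them. The authors deposited 1 log ratio per probe and array, here handled as log10, since no base is given. Array medians were 0.00137, 0.00222 and 0.00194, and 21224, 25272 and 25927 probes had a value. Scanner signals were not used here, so background and dim probes could not be examined. Precision is limited by having 3 arrays.

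Probes with 1 symbol in the platform annotation and a value on all 3 arrays (13027 probes) were averaged per gene. Of 22472 probes with 1 symbol, 22444 were found in the RefSeq gene table by Entrez identifier, and 0 symbols changed. The mean of each of 9394 genes was set against 0 in a two-sided moderated test (limma 3.58.1 under R 4.3.3, functions lmFit and eBayes). Benjamini-Hochberg adjustment ran over all genes. Adjusted p-values in the text come from this fit unless the fit of single probes or another processing is named. Intervals at 95% are limma's. Differences between members were not tested. The scripts were tested on simulated data.

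The SAM test that the design text mentions has no settings there and was not run. Every member is named with its values. Of each further list the called genes are named, some without values, at most 4 per direction by smallest p. Some others were added after their values were seen. The members and lists were chosen with earlier results of these data known. PSMD5, PSMD9 and PSMD10 were placed with the assembly chaperones. PSMA8, PSMB11, PSMC5, PSMD7, PSMD13, PSMG3 and PSMG4 were not analysed here.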

Additional observations from a re-analysis of the deposited data

How the results depend on the processing

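Of the 18 called members, 9 kept their call in all 10 settings that used 3 arrays (PSMA5, PSMA7, PSMB3, PSMB6, PSMB10, PSMD8, PSMD11, PSME1 and PSMG1). The settings that removed local medians of the array surface, kept only NM probes or took the median over probes were chosen after seeing the data. Neighbouring spots correlated at 0.216, 0.258 and 0.167 on arrays 1, 2 and 3, against 0.00893, -0.0198 and 0.0348 for spots 100 numbers apart. With probes on at least 2 arrays, 10 members passed (9 lower, 1 higher) of 11741 genes tested, and 1633 genes in all (675 lower, 958 higher). Array weights gave 29 members (11 higher) and 5801 genes (2625 lower, 3176 higher), with most of the weight on array 2. Leaving out 1 array gave between 0 and 22 members called, 0 to 16 lower, 0 to 6 higher, and 0 to 4287 genes (0 to 1915 lower, 0 to 2372 higher), with medians of the members from -0.0424 to -0.0133. The 0 calls came without array 1 and without array 2. The median of the members was 0.0148 when each gene's first probe was used, -0.0390 with array weights, -0.0550 after the running median and -0.0545 after the local median, -0.0539 with NM probes and -0.0172 over single probes. With the first probe PSMB7 was at 0.0248 and PSMD1 at 0.00299, and with NM probes NFE2L1 was at 0.0180. Of 8 markers of the bronchial epithelial line measured, 1 fell (12.5%) and 2 rose (25%), beside 12.4% and 16.6% of all genes. KRT18 fell to -0.159 and EPCAM rose by 0.278 (limma adjusted p = 0.0150 and 0.0158). KRT14, an epithelial keratin, also passed as higher over its 2 probes, at 0.108 (limma adjusted p = 0.0333). With its first probe KRT14 passed as lower, at -0.159 (limma adjusted p = 0.0274). With NM probes PSMB7 was at -0.196 and after the local median at -0.144. The causes were not tested. No paired analysis was possible because each array already holds both samples and forms a single group.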
